A study of Rattus norvegicus with 16 samples.

Results

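Leukocytes leave the blood by binding to the vessel wall, and 9 genes of this process were followed here in the lungs and the adipose tissue of rats exposed to house dust mite (HDM), a source of inhaled allergens. On the endothelial side these were E-selectin (Sele), P-selectin (Selp), Icam1, Vcam1 and Pecam1. On the leukocyte side they were the P-selectin ligand Selplg and the integrin chains Itgam, Itgal and Itgb2. The genes were listed by name, and each was measured by its brightest probe in a tissue among the probes whose RefSeq transcript maps to that gene. The probes were thus selected on their mean signal. The list was made with the change of Sele in lung known, so the lung values of Sele are given without a test. By this rule 8 of the 9 genes had a probe, 5 of the endothelial side and 3 of the leukocyte side, out of 16678 named genes on the array. Selplg had none, because the transcript identifier of its probe was not in the current gene table.

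The study compared 5 HDM rats with 3 control rats, all male Brown Norway rats aged 7 weeks, and took lung and adipose tissue from each animal. HDM rats received 45 µg of HDM with Al(OH)3 under the skin in each of 3 weeks. They were then challenged through the nose with 120 µg of HDM, 3 times a week for 3 weeks. Control rats were given saline with Al(OH)3 and then saline by the same routes, so that both groups carried the adjuvant.

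Selectins are lectins that catch flowing leukocytes by their surface sugars and make them roll along the vessel. Endothelial cells keep P-selectin ready in storage granules, from which it reaches the surface within minutes, whereas E-selectin has to be made anew after an inflammatory signal. Chemokines then switch leukocyte integrins to a binding state, and these hold on to Icam1 and Vcam1 before the cell passes between endothelial cells with the help of Pecam1. Pecam1 is also found on platelets and leukocytes, Selp on platelets, and Icam1 on many cell types, so the assignment to sides is a simplification.

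Each of the 16 arrays held RNA of 1 tissue of 1 rat. Each array was scaled by the 75th percentile of its signal, which ranged from 376 to 488 in lung and from 111 to 240 in adipose tissue. Between 62.2% and 68.9% of the probes were well above background in lung, against 51.2% to 60.3% in adipose tissue, so dim genes were measured less surely in adipose tissue. The summed signal of lung epithelial markers was 1528 to 1866 times that percentile in lung and 1.44 to 2.38 times in adipose tissue. Adipocyte markers summed to 745 to 1478 in adipose tissue and 3.54 to 13.7 in lung, so both tissues bore the markers of their label. On the adipose arrays, HDM rat 1 and control rat 1 stood apart with summed epididymal marker signals of 1824 and 2962, against 0.191 to 29.1 in the other 6 rats, and the array of HDM rat 2 had 1711 outlier spots against 410 to 566 on the others. The 8 arrays of each tissue shared 1 slide, with HDM rats 1 to 4 in one row and HDM rat 5 with the 3 control rats in the other. Values are means ± SD of log2 signals relative to the 75th percentile of the array, and in bulk tissue fewer cells of a type and less RNA per cell cannot be told apart.

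The probes on which the results turn are shown first, because 2 genes gave different answers with different probes. Each probe is 60 bases long and is written from its first base. The Selplg probe and the dimmer Itgam probe are whole, and the first 30 bases are given for the others. Capitals in the Itgam probe mark the codons of a short motif next to the membrane that the tails of integrin alpha chains share.
Sele, A_44_P291264: aaagtgtcccaacttctgaattaactcgtt
Sele, A_64_P019555: acctcacttctgacattgtcctcattgatc
Selp, A_44_P1159999: ggaaaggtcctcttttcgttattttgttct
Itgam, A_43_P15993: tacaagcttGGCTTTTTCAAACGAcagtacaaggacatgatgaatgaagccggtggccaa
Selplg, A_64_P015932: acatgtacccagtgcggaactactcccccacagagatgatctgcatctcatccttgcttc
The Selp probe shown and the Selplg probe are not named through RefSeq; they bear these names in the study's own annotation of lung genes. That annotation covers probes picked for their change in lung, so the lung values of these probes are a description only. A second Selp probe, A_64_P166514, has the same 60 bases as the first, so the 2 probes are repeat measurements and not independent evidence.

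Promoter sequences of 4 of the 9 genes were at hand from RefSeq (GRCr8 assembly), and the 100 bases before the transcript start that the promoter table uses are printed because these genes include both the gene that changed most and the 2 endothelial ligands of the integrins. NF-κB, a transcription factor switched on by inflammatory cytokines, binds κB sites, and matches to the κB consensus on either strand are in capitals.
Sele, chr13:78936414-78936513, plus strand: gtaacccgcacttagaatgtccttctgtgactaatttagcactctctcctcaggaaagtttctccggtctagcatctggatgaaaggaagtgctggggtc
Vcam1, chr2:206742784-206742883, minus strand: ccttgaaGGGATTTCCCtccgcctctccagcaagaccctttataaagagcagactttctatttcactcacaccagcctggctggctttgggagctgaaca
Icam1, chr8:27829745-27829844, plus strand: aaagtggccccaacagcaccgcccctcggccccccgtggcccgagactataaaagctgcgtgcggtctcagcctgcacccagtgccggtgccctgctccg
Itgam, chr1:192089492-192089591, plus strand: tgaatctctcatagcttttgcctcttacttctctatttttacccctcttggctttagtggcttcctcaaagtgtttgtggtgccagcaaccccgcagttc
A match was found for Vcam1 alone, at base -93 from the start. Over windows of 300 bases (250 before and 50 after the start), 2515 of 33469 rat promoters (7.51%) held a match, and of these 4 genes only Vcam1 did. The absence of a match says only that the letters were not in that window. For Sele, Icam1 and Itgam the printed bases lie inside the recorded span of the gene, for Itgam apart from the first few, so a start further upstream is recorded for them.

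In the lung, Sele was the adhesion gene with the largest difference, followed by Selp where its bright probe is used. Itgam rose about 2-fold, and Icam1, Vcam1 and Pecam1, the abundant adhesion molecules of the vessel wall, overlapped between the groups. Of the 7 genes named through RefSeq other than Sele, 1 was called differentially expressed (adjusted p below 0.05 and more than 1.5-fold), namely Itgam, which was higher in HDM rats. Among all 45598 probes 0.482% were called higher and 0.373% lower. Of these 7 genes Itgam was also the only one with every HDM rat above every control rat, as was the case for 4.65% of all probes.

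The signal of Sele in lung was -1.77, -1.82, -1.71, -1.52 and -1.61 in HDM rats 1 to 5 and -4.64, -4.17 and -4.82 in control rats 1 to 3. The 5 HDM rats lay close together and far above the control rats, in which the probe was still well above background. The mean was -1.68 ± 0.12 in HDM rats (n = 5) and -4.54 ± 0.34 in control rats (n = 3), a difference of 2.86 (SE 0.16) on the log2 scale, or 7.25-fold. With normexp background correction, which compresses dim signals, the difference was 1.32. The dimmer Sele probe was well above background in 1 HDM rat and in no control rat. It was -5.29 ± 0.31 in HDM rats against -7.39 ± 0.30 in control rats. Most values of both groups were thus not well above background, so no size of the difference is given.

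For Selp, the only probe named through RefSeq rose well above background on 0 of 16 arrays, so only a bound is known in either tissue. With the bright Selp probe the signal in lung was 0.94, 0.83, 0.84, 1.16 and 0.98 in HDM rats and -1.54, -1.44 and -1.80 in control rats. The groups were as clearly apart as for Sele, with a difference of 2.54 (SE 0.13), or 5.82-fold. The repeat probe gave 2.50 (SE 0.16).

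Icam1, the endothelial ligand of the integrins Itgal/Itgb2 and Itgam/Itgb2, was 5.28, 5.45, 4.96, 6.01 and 5.69 in the lungs of HDM rats. It was 5.45, 5.58 and 5.35 in control rats. The HDM rats spread to both sides of the control rats, and the mean difference of 0.02 (95% interval -0.51 to 0.54, adjusted p = 1.000 by limma) was far smaller than that spread. Its sign turned negative when arrays were scaled to their median (-0.03), to Gapdh and Hprt1 (-0.001) or by normexp and quantiles (-0.003). Vcam1, which binds leukocyte integrins with the alpha 4 chain, was between 3.37 and 3.94 in HDM rats and between 3.40 and 3.58 in control rats. Its difference was 0.19 (interval -0.15 to 0.52, adjusted p = 0.817). Pecam1, a molecule of the junctions between endothelial cells, was between 4.59 and 4.82 against 4.78 to 5.00. Its difference of -0.11 (interval -0.35 to 0.14, adjusted p = 0.897) did not pass the test either.

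On the leukocyte side Itgam, the alpha chain of Mac-1 on neutrophils, monocytes and macrophages, was 0.78, 0.52, 0.93, 1.10 and 0.83 in HDM rats. In control rats it was -0.04, -0.18 and -0.37, and the groups did not overlap. It rose by 1.03 (SE 0.15), or 2.04-fold, with an adjusted p of 0.029 by limma and an exact permutation p of 0.0179, the smallest that 5 against 3 rats can give. The dimmer Itgam probe, shown above, rose by 1.14 (SE 0.17, adjusted p = 0.033). The call was lost in 6 of 8 fits that left out 1 rat (HDM rat 1, 3 or 5, or any of the control rats), with adjusted p between 0.033 and 0.137 over all 8, while the difference stayed between 0.94 and 1.11. With the slide row as a block only HDM rat 5 and the control rats inform the value, which was again 1.03 (adjusted p = 0.419).

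Itgal, the alpha chain of LFA-1 on all leukocytes, was between -0.19 and 0.73 in HDM lungs and between -0.32 and 0.001 in control lungs. The difference was 0.33 (interval -0.19 to 0.85, adjusted p = 0.768). Itgb2, the beta chain that both alpha chains need, was 3.33, 3.06, 3.07, 3.40 and 3.27 against 3.17, 2.92 and 2.71. Its difference was 0.29 (interval -0.04 to 0.62, adjusted p = 0.573), with control rat 1 above HDM rats 2 and 3. The Selplg probe, for the main ligand of P-selectin, was -1.33, -1.35, -1.52, -0.98 and -1.17 in HDM rats and -2.10, -2.32 and -1.85 in control rats. The groups did not overlap and differed by 0.82 (SE 0.16), or 1.76-fold.

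**Figure D1:**
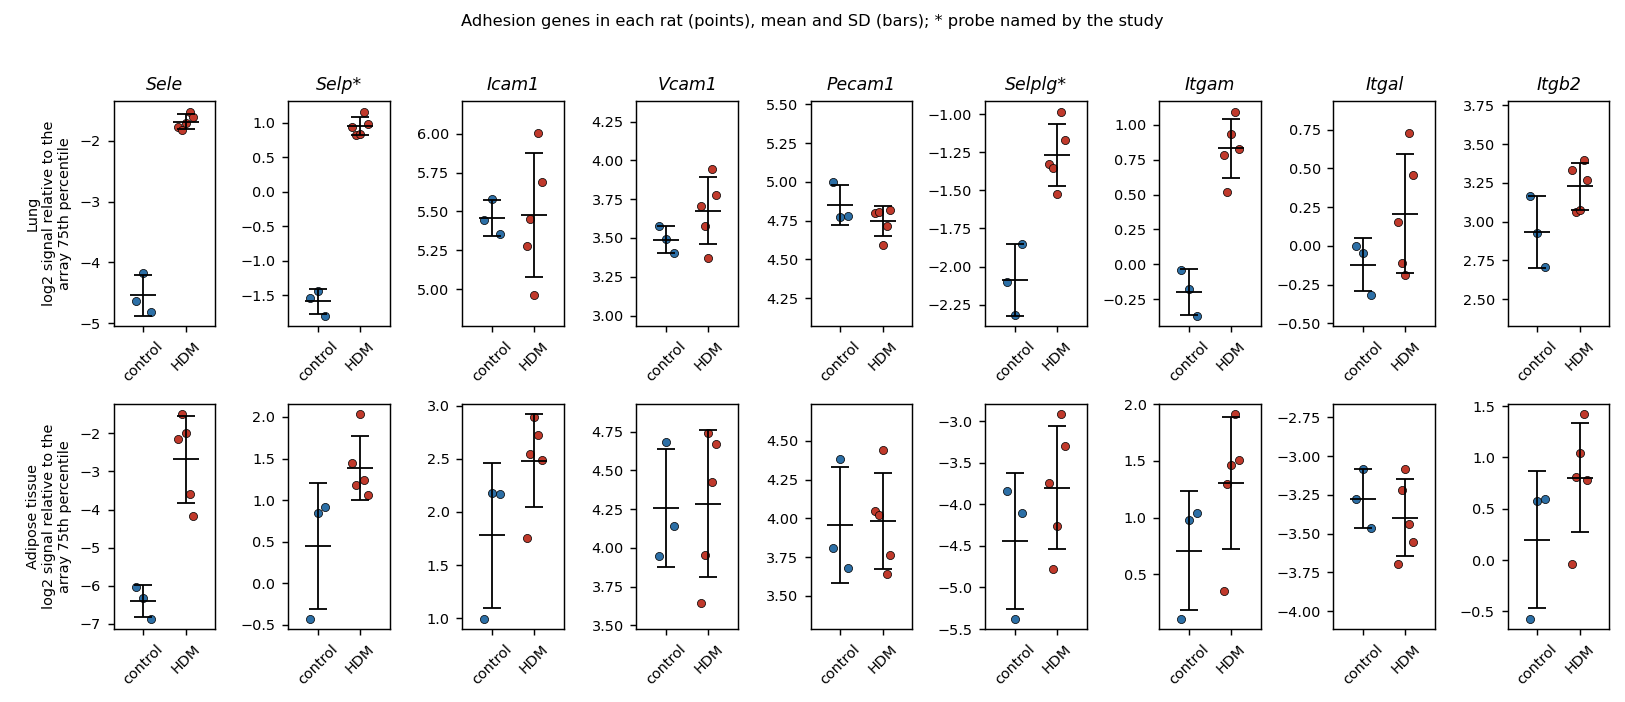
Signal of each gene (log2 relative to the 75th percentile of the array, separate vertical scale for each gene) in control rats (blue, n = 3) and HDM rats (red, n = 5), lung above and adipose tissue below. Points are rats and bars are mean and SD. Selp and Selplg are the probes named by the study. In lung Itgam separates the groups, as do 4.65% of all probes with HDM rats above. Sele, Selp and Selplg, taken with their lung change known, separate them there as a description only. In adipose tissue Sele and this Selp probe separate the groups, as do 1.54% of all probes. The Selp probe named through RefSeq is not shown, and with it the groups overlap in both tissues.

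Adipose tissue gave a wider spread between rats, and 0 of the 8 genes were called there, as were 0 of all 45598 probes (0%) by limma. At an unadjusted p below 0.05 the count was 1 of 8 (Sele), against 9.9% of all probes. The test named in the study's methods, with adjustment over all probes, also called 0 of the 8.

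Sele was -2.16, -1.50, -1.99, -3.59 and -4.17 in the adipose tissue of HDM rats 1 to 5, and -6.03, -6.31 and -6.87 in control rats. Every HDM rat was above every control rat, as for 1.54% of all probes, but the HDM rats were spread widely, with rats 4 and 5 lowest. All 5 HDM rats but 0 of 3 control rats had a signal well above background, which gives at least 5.53-fold more signal with HDM. The measured difference was 3.72 (SE 0.62, interval 2.28 to 5.15), with an exact permutation p of 0.0179 and an adjusted p of 0.218 by limma, which does not pass. Without HDM rat 1 and control rat 1, which carried epididymal genes, it was 3.78, and without HDM rat 2 it was 3.42. Within the slide row that holds both groups it was 2.23. The dimmer Sele probe was well above background on 0 of 8 adipose arrays, so its values there are only a bound. With normexp background correction the difference of the brighter probe was 0.73.

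The bright Selp probe in adipose tissue was 1.44, 1.18, 2.03, 1.24 and 1.06 in HDM rats and -0.43, 0.85 and 0.92 in control rats. The groups did not overlap, but the gap between the highest control rat and the lowest HDM rat was small and control rat 1 was far below the others. The difference was 0.94 (SE 0.36, exact permutation p = 0.0179, adjusted p = 0.465 by limma). It was 0.49 (adjusted p = 0.870) without HDM rat 1 and control rat 1.

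Icam1 in adipose tissue was 1.75, 2.55, 2.89, 2.73 and 2.48 against 0.99, 2.18 and 2.17. Apart from rat 1 of each group, every HDM rat was above the control rats, and the difference of 0.70 (interval -0.13 to 1.53, adjusted p = 0.577) did not pass. It was 0.31 without control rat 1. Vcam1 was between 3.64 and 4.74 against 3.95 to 4.69, and Pecam1 between 3.64 and 4.44 against 3.68 to 4.38. Their differences were both 0.03 (adjusted p = 0.979 and 0.973 by limma), and both turned negative under quantile normalization (-0.03 each).

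Among the leukocyte genes of adipose tissue, Itgam was 0.35, 1.30, 1.47, 1.91 and 1.51 in HDM rats and 0.11, 0.98 and 1.04 in control rats, and Itgb2 was -0.04, 0.81, 1.04, 1.42 and 0.78 against -0.57, 0.57 and 0.59. In both genes rat 1 of each group was lowest. The differences were 0.60 (interval -0.27 to 1.47, adjusted p = 0.668) for Itgam and 0.61 (interval -0.29 to 1.51, adjusted p = 0.677) for Itgb2. Without control rat 1 they were 0.30 and 0.22. Itgal was between -3.70 and -3.08 against -3.46 to -3.08, and its difference of -0.12 (adjusted p = 0.830) became 0.17 under quantile normalization. The Selplg probe, well above background in 4 HDM rats and 1 control rat, was between -4.77 and -2.92 against -5.38 to -3.84, a difference of 0.64 (adjusted p = 0.745), or 0.17 without control rat 2.

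The sides of adhesion were then compared by their medians. In lung the median log2 fold change was 0.02 over the 5 endothelial genes, with a range from -0.65 for the dim Selp probe to 2.86 for Sele, and 0.33 over the 3 leukocyte genes, with a range from 0.29 to 1.03. The median over all probes was 0.003. With the study's names for Selp and Selplg the leukocyte median was 0.57 and the endothelial median 0.19, the value of Vcam1. The adipose medians were 0.03 and 0.60, beside -0.15 over all probes. The endothelial median became 0.70 with the bright Selp probe. The endothelial medians include Sele and, under its RefSeq name, the Selp probe at background, and no test was made of the difference between sides.

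Averaged over its 3 genes and set relative to the control rats, the leukocyte side in lung was between 0.28 and 0.87 in HDM rats and between -0.20 and 0.17 in control rats. In adipose tissue it was between -0.34 and 0.75 against -0.46 to 0.28, so that the groups overlapped there. The endothelial side averaged between 0.14 and 0.65 in HDM lungs and between -0.11 and 0.06 in control lungs. In adipose tissue it averaged between 0.48 and 1.44 against -0.17 to 0.11. The groups were thus apart in both tissues, but these averages include Sele and are a description only.

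**Figure D2:**
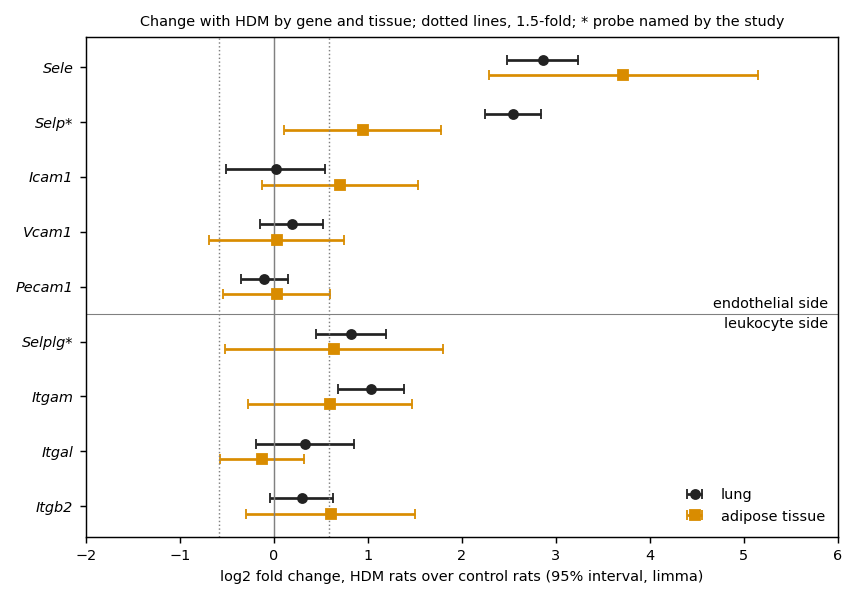
Log2 fold change of HDM rats over control rats for each gene in lung (circles) and adipose tissue (squares), with 95% intervals from limma. In lung the interval of Itgam lies above 0 and those of Icam1, Vcam1, Pecam1, Itgal and Itgb2 include it, while Sele, Selp and Selplg in lung are a description only. The intervals in adipose tissue are wider throughout except for Itgal.

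Because each rat gave both tissues, the change in lung was set against that in adipose tissue within rats. None of the 8 genes passed the test of this difference at an adjusted p below 0.05 by limma, beside 1 probe of all (0.00219%), and none had an unadjusted p below 0.05, against 7.74% of all probes. For Sele the adipose change is only a bound, since the probe was not well above background in control adipose tissue, and no size of the difference is given. Its lung change was known beforehand, so Sele is counted there as a description only. For Icam1 the lung change minus the adipose change was -0.68 (interval -1.64 to 0.27), for Itgam 0.43 (interval -0.48 to 1.35) and for Itgb2 -0.31 (interval -1.38 to 0.75). The bright Selp probe, the lung change of which had chosen it, had a larger change in lung by 1.60.

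In control rats 6 of the 8 genes differed in level between the tissues at an adjusted p below 0.05, 5 of them brighter in lung and 1 in adipose tissue. Sele is counted among those brighter in lung as a description only. Of all probes 13% were brighter in lung and 33.4% in adipose tissue by the same test. Each tissue had its own slide and each array its own scaling. A difference in level between the tissues therefore cannot be told apart from one between slides or from the scaling. Icam1 was 5.46 ± 0.12 in lung and 1.78 ± 0.68 in adipose tissue (n = 3 each), a difference of 3.68 (SE 0.33, adjusted p = 1.9e-04). Itgal was higher in lung by 3.15 (adjusted p = 1.5e-04) and Itgb2 by 2.74 (adjusted p = 0.0011). A smaller difference in favor of lung was found for Pecam1 (0.90, adjusted p = 0.016), and its call was kept in 6 of 8 fits that left out 1 rat. Sele was brighter in lung as well, by an amount that is not known because its adipose level is only a bound. The dimmer Sele probe went the other way after scaling, but it was well above background in 0 control rats of either tissue, so no size is given. Before scaling its signal in control rats was 2.11 to 2.82 in lung and 2.08 to 2.36 in adipose tissue. Itgam was brighter in adipose tissue (-0.91, adjusted p = 0.045), but its dimmer probe did not pass (-0.47, adjusted p = 0.257). The call was lost in 6 of 8 fits that left out 1 rat, those without HDM rat 2, 3, 4 or 5 or control rat 2 or 3. Vcam1 differed by -0.77 (adjusted p = 0.056) and did not pass. For the probes named by the study, lung values had a part in their choice, so their levels are a description only. The bright Selp probe was brighter in adipose tissue (-2.04), whereas the Selplg probe was brighter in lung (2.35).

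The wider adhesion machinery was examined with 5 lists. Of the 62 genes reported here, 4 were called in lung, all of them higher in HDM rats, beside 0.482% of all probes called higher and 0.373% lower, and 0 were called in adipose tissue. In lung 0 of 14 selectin partners and sugar enzymes were called by limma. At an unadjusted p below 0.05 there were 4 of 14, against 10.2% of all probes. Glycam1, a sugar-bearing selectin ligand, differed by -0.86 (adjusted p = 0.736) and Spn, a sialomucin of leukocytes, by 0.74 (adjusted p = 0.134), with every HDM rat above every control rat for Spn. In adipose tissue Fut4, which adds fucose to selectin ligands, was well above background on 1 array of each group and the sulfating enzyme Chst4 on 0 of 8, so no differences are given for them there.

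Of 8 other leukocyte integrins, Itgb7, the partner of the alpha 4 and alpha E chains on lymphocytes and eosinophils, rose by 0.93 in lung (SE 0.15, adjusted p = 0.039). The platelet integrin chain Itgb3 differed by 0.42 (adjusted p = 0.401). In adipose tissue Itgad, well above background in 2 of 5 HDM rats and all control rats, differed by -0.97 (adjusted p = 0.540) and Itga6 by 0.27 (adjusted p = 0.636).

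Of 15 genes of integrin activation, Fgr, a Src family kinase of myeloid cells that acts downstream of integrins, rose by 0.99 (SE 0.11, adjusted p = 0.0094) in lung. The exchange factor Vav3 rose by 0.61 (SE 0.10, adjusted p = 0.045), or 1.52-fold, just past the threshold. By qPCR the study found no significant difference of Vav3 in lung. The median of this list was 0.27 in lung and 0.29 in adipose tissue, where Skap1 (-0.94) and Vav3 (-0.75) differed most and did not pass. Vav3 thus had opposite signs in the tissues, but the difference between the tissues was not tested for it.

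None of 14 genes of endothelial junctions and transmigration was called in lung. Their median was -0.05, with Cldn5, a tight junction protein, at -0.41 (adjusted p = 0.361) and Pvr at -0.40 (adjusted p = 0.396). In adipose tissue the median was 0.04, and Jam3 (-0.45) and Icam4 (-0.37) differed most. Of 11 genes of the NF-κB response, Birc3, an inhibitor of cell death, rose by 0.74 in lung (SE 0.12, adjusted p = 0.035). The chemokine gene Ccl2 differed by 1.17 (adjusted p = 0.185) and Nfkbia, the inhibitor that NF-κB itself induces, by -0.86 (adjusted p = 0.077), with the groups apart in both. In adipose tissue the list had a median of 0.36, with Ccl2 at 1.13 (adjusted p = 0.472) and Bcl3 at 1.10 (adjusted p = 0.358). In lung 9 of the 11 genes had a positive difference. Every HDM rat was above every control rat for 4 genes, against 4.65% of all probes. The reverse held for 1 gene (Nfkbia), and for 2258 of 45450 probes.

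**Figure D3:**
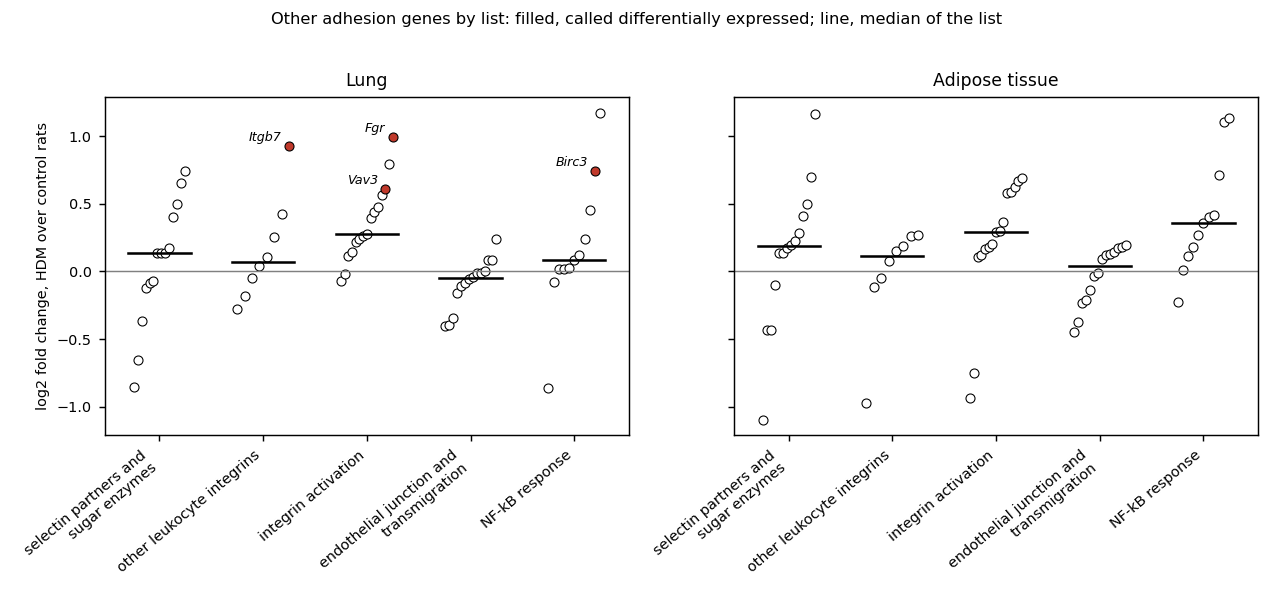
Log2 fold change of HDM rats over control rats for each gene of the 5 adhesion lists in lung (left) and adipose tissue (right). Filled points are called differentially expressed and lines are medians. Itgb7, Fgr, Vav3 and Birc3 are filled in lung, and no point is filled in adipose tissue.

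Markers of leukocytes were set beside these results. Of 8 neutrophil markers, 5 were called higher in lung, against 0.482% of all probes. These were S100a8 (4.46), S100a9 (4.09), Mmp8 (3.95), Cxcr2 (2.46) and Csf3r (2.18). The summed signal of the list was between 123 and 270 times the 75th percentile in HDM lungs and between 8.26 and 10.5 in control lungs. Ltf, a granule protein of maturing neutrophils, was well above background on 0 of 8 lung arrays and Ngp on those of 2 HDM rats. In the adipose samples the summed signal of the list was between 3.53 and 9.01 against 0.691 to 1.36, and the ranges did not overlap. S100a8 (mean 0.89) and S100a9 (1.28) were its brightest members in HDM rats. Of the 8 markers there, 5 had a higher mean in HDM rats and 0 were called. For 3 of them every HDM rat was above every control rat, against 1.54% of all probes. Ltf, Ngp and Camp, all dim there, had a lower mean. Neutrophils carry Itgam, Itgb2 and Selplg, and the part of these cells in the differences of those genes was not tested.

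The 5 markers of all leukocytes summed to between 140 and 161 in HDM lungs and between 103 and 136 in control lungs, and 0 of them were called. In adipose tissue the sums overlapped (41.8 to 66.5 against 37.2 to 110). The sum of 110 was that of control rat 1, which carried epididymal genes. Of the 5 markers there, 4 had a higher mean in HDM rats. Cd52, which varied widely, had a lower one (0.02 ± 2.84, n = 5, against 1.67 ± 4.15, n = 3). Its highest value was 5.03 in HDM rats (median -0.95) and 6.42 in control rats (median -0.09). The sums of this list in adipose tissue thus depend on Cd52 in single rats, and its part in their overlap was not tested. Eosinophil markers summed to between 0.837 and 2.48 in HDM lungs against 0.278 to 0.493, with 0 of 5 called. The 8 measured endothelial markers overlapped between the groups in lung (168 to 293 against 205 to 240) and in adipose tissue (48.8 to 70.1 against 47.2 to 69.5), and the largest difference among them in lung was that of Cldn5. Kdr, the receptor that marks endothelium, was 6.64 ± 0.28 against 6.43 ± 0.27 in lung. The 5 measured platelet markers, relevant to Selp, also overlapped in lung (8.88 to 13.0 against 7.08 to 16) and in adipose tissue (5.79 to 14.4 against 4.54 to 11.5).

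**Figure D4:**
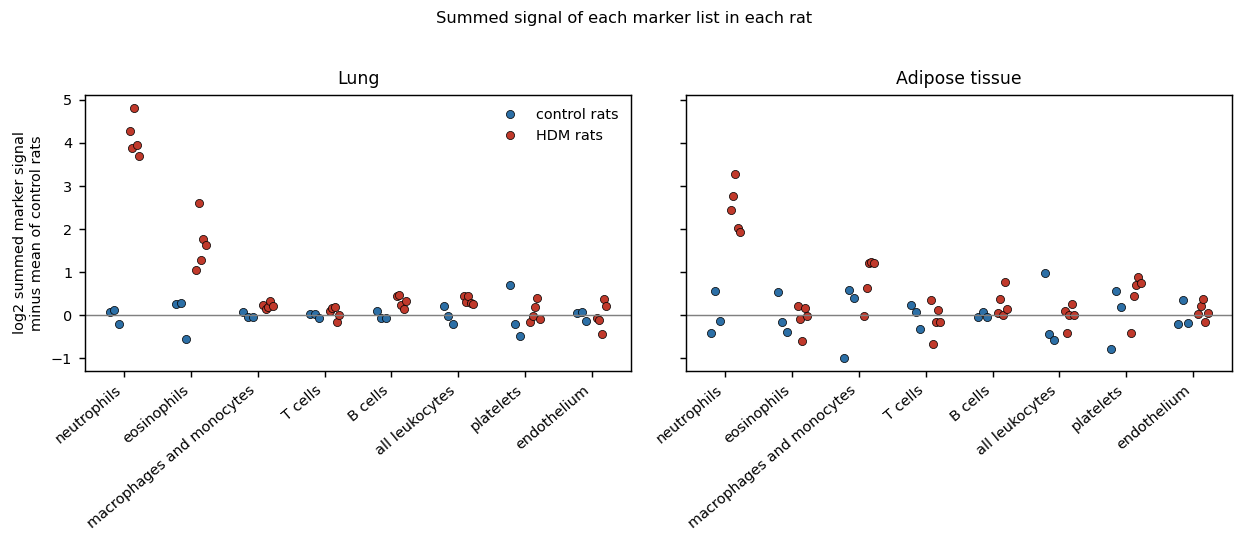
Summed signal of each marker list in each rat, as log2 minus the mean of the control rats, in lung (left) and adipose tissue (right). Control rats are blue (n = 3) and HDM rats red (n = 5). The sums of neutrophil markers separate the groups in both tissues, and those of endothelial and platelet markers overlap in both.

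The genes with the profile nearest to that of Sele over the 16 arrays were sought by the root-mean-square difference of log2 values, each centered within its tissue. They were S100a9 (0.61), Csf3r (0.86), S100a8 (0.92), Stfa2l2 (0.95) and Il1rn (1.13), beside a median of 1.74 over 12516 genes. Those nearest to the bright Selp probe were Cxcr2 (0.31), Mmp9 (0.37), Fcnb (0.44), Il1b (0.52) and Lrg1 (0.52), beside a median of 1.03. Their log2 fold changes show how these profiles differ. S100a9 differed by 4.09 in lung and 3.83 in adipose tissue, and Cxcr2 by 2.46 and 0.61. S100a9, S100a8, Csf3r and Cxcr2 stand on the neutrophil list as well. Only named genes well above background on 5 or more of the 8 lung arrays were searched, which the 5 HDM rats alone can meet. The lung changes of Sele and of the Selp probe were known beforehand, so genes with large changes were bound to lie near them. The lists and the medians beside them are thus a description only. In control adipose tissue the Sele probe was not well above background. All 16 points share the scaling of their array, and the 2 arrays of a rat are not independent.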

How the data were processed

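Lung and adipose tissue of 8 rats (5 HDM, 3 control) were measured on 16 one-color Agilent arrays. Per the file headers, the authors extracted spot intensity values with Feature Extraction 12.0.3.1, with background subtracted. The deposited table of log2 values came from GeneSpring GX 15.5. It holds 39 cells without a value and served as an alternative, and 99.9% of its cells lay within 0.1 of the main values after centering.

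After outlier spots and control probes were removed, repeated spots were averaged as log2, and each array was shifted so that its 75th percentile became 0. Tissues were fitted apart with limma 3.58.1 in R 4.3.3 (jsonlite 2.0.0), with Benjamini–Hochberg adjustment over 45598 probes. Calls needed an adjusted p below 0.05 and over 1.5-fold change. Tissues were compared on within-rat differences, since the labels name the rat in both. HDM and control rats with the same number are different animals, so no block was used. For single probes, exact permutation tests were two-sided (56 splits). Fits were tested on simulated data. Figures were drawn with matplotlib 3.10.9, with pandas 2.3.3 in Python 3.11.15.

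The 9 genes and all lists were chosen with earlier results of these data known. All 9 are named, as are list genes that were called, otherwise the 2 of each list with the largest change, and the 5 nearest profiles. RefSeq names covered 21229 probes. Beside the 5 adhesion lists, 12 marker lists were used (endothelium, all leukocytes, neutrophils, eosinophils, macrophages and monocytes, T cells, B cells, platelets, lung epithelium, adipocytes, epididymis and erythrocytes). The 3 probes named through the study's own annotation were added after the data were seen. One item of the adhesion lists is not reported here. Alternatives were the t-test of the methods, adjustment over probes past 1.5-fold, quantile, median and Gapdh/Hprt1 scaling, normexp (offset 50, on median spot signals, since the mean signals planned for it were not used here), the deposited table, a filter on dim probes, array weights, slide row and replicate number as blocks, each rat left out, and other probes. No spots of these genes were saturated. The number of arrays limits the precision, and the p-values measure the spread between these rats.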

Additional observations from a re-analysis of the deposited data

Results flagged for a closer look

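In 1 of 26 groups of 5 HDM rats, 1 animal lay far from the others by Dixon's test, and chance alone would mark about 1 in 20 groups. With the dimmer Sele probe, HDM rat 4 had a lung signal of -4.74, while the other 4 lay between -5.48 and -5.35. It was the only rat in which this probe was well above background. HDM rat 4 was also the highest with the brighter Sele probe (-1.52), there without standing apart.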

How the results depend on the processing

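Sele was listed with its lung change known, so its call is a description and only that of Itgam bears on the processing. Under the other tests, scalings, filters and weightings, between 341 and 1329 probes were called in lung, beside 390 in the main fit. The count of 2 genes called in lung (Itgam and Sele) was the same under all of these. It was 3 with the study's probe names, which add Selp, itself a description in lung, 1 with the slide row as a block, and between 1 and 2 with 1 rat left out. With the replicate number as a block, which pairs unrelated rats, it was 0, with log2 fold changes of 2.78 for Sele and 0.94 for Itgam. Sele in lung ranged from 1.32 (normexp) to 3.05 and kept its direction. With the slide row as a block the medians in lung were 0.23 (endothelial) and 0.58 (leukocyte). With the study's probe names the leukocyte median in lung was 0.57 and the endothelial median in adipose tissue 0.70. In adipose tissue 0 genes were called under every alternative run. Median scaling moved the median of all adipose probes from -0.15 to 0.14.

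The signs that turned all belong to differences that did not pass the test, and the cause was not tested. Icam1 in lung (0.018) was -0.034 with median scaling, -0.0015 with Gapdh and Hprt1, -0.0028 with normexp, -0.23 with the replicate block and between -0.11 and 0.15 with 1 rat left out. In adipose tissue, quantile normalization gave 0.047 for the dim Selp probe, -0.032 for Vcam1, -0.033 for Pecam1 and 0.17 for Itgal, which median scaling also put at 0.17. Normexp gave 0.091 for Selp, -0.046 for Vcam1 and -0.013 for Pecam1, and array weights 0.019, -0.050 and -0.33. Pecam1 was -0.19 with the slide row and Vcam1 -0.14 with the replicate block. With 1 rat left out the ranges were -0.77 to 0.20 (Selp), -0.13 to 0.24 (Vcam1) and -0.11 to 0.24 (Pecam1). Without HDM rat 1 and control rat 1, Selp was 0.18 and Pecam1 -0.062.

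For the change in lung minus that in adipose tissue, leaving out 1 rat gave -0.76 to 0.17 (Selp), -0.056 to 0.36 (Vcam1), -0.38 to 0.019 (Pecam1) and -0.62 to 0.19 (Itgb2), and without HDM rat 1 and control rat 1 Pecam1 was 0.017. For the levels in control rats, Selp was 0.54 with quantile normalization over 16 arrays, 0.19 without HDM rat 1 and control rat 1, and between -0.63 and 0.19 with 1 rat left out. The count of genes that differed in level, 6 with Sele included as a description, was between 3 and 7 with 1 rat left out, and 3 without control rat 3.

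The lower signal in adipose tissue limits Sele, Selplg and Itgal there. With 3 control rats, single values cannot reach an exact p below 0.0179.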

Other observations

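Lymphocytes and macrophages also carry Itgal and Itgb2. The sums of their markers separated the groups in lung for macrophages and B cells and overlapped for T cells. Of the 7 markers of macrophages and monocytes, 4 had a higher mean in HDM lungs. Marco (-0.40), Cd163 (-0.27) and Mrc1 (-0.13) had a lower one. In lung the 7 markers of macrophages and monocytes summed to between 14.1 and 16.1 in HDM rats and between 12.3 and 13.3 in control rats, and in adipose tissue to between 17.1 and 40.9 against 8.74 to 26.2. The 7 T cell markers summed to between 10.3 and 13.1 against 10.9 to 11.7 in lung and between 1.72 and 3.51 against 2.18 to 3.21 in adipose tissue. The 3 measured B cell markers summed to between 5.10 and 6.44 against 4.47 to 5.00 in lung and between 0.386 and 0.654 against 0.373 to 0.403 in adipose tissue. In adipose tissue the 3 lists overlapped. None of these genes was called in either tissue by limma. Erythrocyte markers, a sign of blood in the sample, overlapped in lung (63.0 to 266 against 82.4 to 268). In adipose tissue all 5 had a higher mean in HDM rats, with a median difference of 0.73, and 0 were called. Their summed signal there was 21.9 to 40.5 against 10.6 to 24.3. Hbb, a hemoglobin chain, differed by 0.75 (adjusted p = 0.441 by limma) with the groups apart. The part of blood in the adipose differences of the adhesion genes was not tested.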
